A study of Rattus norvegicus with 9 samples.

Results

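Gene expression was examined for 10 genes of cytotoxic lymphocytes in the bone of ovariectomized rats: the granule proteases Gzmb, Gzma, Gzmk and Gzmm, the pore protein gene Prf1, the granule membrane gene Nkg7, and the receptor genes Klrd1, Klra1, Cd96 and Ncr1. The members were taken by gene symbol, and all 10 were present among the 23026 genes in the deposited tables. They were selected on the measured counts of Gzmb, known to be very uneven between libraries, together with genes of the same cells, to see whether the libraries with high Gzmb were also high in the other 9 genes. The group differences of Gzmb are therefore described here without a test.

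Bone mRNA was sequenced from 9 female Sprague-Dawley rats in 3 groups of 3, which were 8 weeks old at purchase. Sham rats lost only fat beside the ovary and received the vehicle CMC-Na (sodium carboxymethyl cellulose). The labels give it as 1%, 2% and 3% for replicates 1, 2 and 3. The methods of the study instead give 1% for all vehicle-treated rats, and the labels' other values could not be checked. OVX rats lost both ovaries, as a model of the bone loss that follows loss of ovarian oestrogen (PMOP in the labels), and received 1% CMC-Na. OVX-AS-IV-High rats had the same ovariectomy and then AS-IV (astragaloside IV, a saponin from Astragalus) at 80 mg/kg by gavage for 8 weeks, started 6 weeks after surgery. The methods describe the AS-IV as made up in 1% CMC-Na. Each rat gave 1 library, so a library stands for 1 animal, and is named here by its group and replicate number (Sham 1, OVX 1, AS-IV 1 and so on, where AS-IV stands for OVX-AS-IV-High). The numbers carry no order within a group.

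The libraries held 34874880 to 37298250 counts each. All 12 osteoblast and osteocyte markers and all 10 osteoclast markers examined passed the filter on low counts (at least about 10 counts in 3 libraries), as did 10 of 10 erythroid and 11 of 11 skeletal muscle markers, so the tissue labelled bone also held RNA of marrow and muscle genes. Summed skeletal muscle markers ranged from 1826 to 9998 CPM (counts scaled to a common library total) in Sham, 1813 to 3720 in OVX and 634 to 5187 in the AS-IV group. In such bulk tissue, fewer cells of a type and less RNA per cell cannot be told apart.

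Cytotoxic T cells and natural killer (NK) cells kill target cells by releasing granules. Perforin, the product of Prf1, opens the target membrane, and granzymes, a family of serine proteases, enter and cleave proteins in the target. Receptors on the killer cell, among them the products of Klrd1, Klra1, Cd96 and Ncr1, tune whether the granules are released. In bone such cells are a small part of the marrow, and granzyme B can also be made by other marrow cells, such as plasmacytoid dendritic cells and mast cells.

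The promoters of the 3 granzymes that passed the filter and of Prf1 are shown because Gzmb followed a different pattern over the libraries from the other 3. They are the 250 bases before the RefSeq gene start in the GRCr8 assembly, whose coordinates differ from those of the mRatBN7.2 build used for the counts. The windows are chr15:34462470-34462719 (minus strand) for Gzmb, chr2:46582016-46582265 (minus strand) for Gzmk, chr7:10667257-10667506 (minus strand) for Gzmm and chr20:29788790-29789039 (plus strand) for Prf1, each read 5′ to 3′ in the direction of the gene. Capitals mark matches to 3 motifs, read on both strands: the RUNX core TGTGGT, the CRE-like TGACGTC and the T-box core GGTGTGA.
Gzmb: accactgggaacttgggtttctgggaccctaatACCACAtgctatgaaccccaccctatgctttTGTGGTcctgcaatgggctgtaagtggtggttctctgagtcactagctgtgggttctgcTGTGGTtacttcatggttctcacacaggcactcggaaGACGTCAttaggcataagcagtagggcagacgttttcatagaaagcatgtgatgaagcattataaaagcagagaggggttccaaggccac
Gzmk: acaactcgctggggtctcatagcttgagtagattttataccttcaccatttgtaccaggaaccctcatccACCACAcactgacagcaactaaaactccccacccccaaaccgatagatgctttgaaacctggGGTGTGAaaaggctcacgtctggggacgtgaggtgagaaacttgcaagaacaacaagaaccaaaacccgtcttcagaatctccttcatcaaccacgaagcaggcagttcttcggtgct
Gzmm: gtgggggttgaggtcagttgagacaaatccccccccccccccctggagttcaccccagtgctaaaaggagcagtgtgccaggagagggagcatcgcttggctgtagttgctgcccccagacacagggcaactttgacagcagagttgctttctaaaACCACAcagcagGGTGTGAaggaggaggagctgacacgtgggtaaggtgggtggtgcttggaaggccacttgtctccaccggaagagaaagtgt
Prf1: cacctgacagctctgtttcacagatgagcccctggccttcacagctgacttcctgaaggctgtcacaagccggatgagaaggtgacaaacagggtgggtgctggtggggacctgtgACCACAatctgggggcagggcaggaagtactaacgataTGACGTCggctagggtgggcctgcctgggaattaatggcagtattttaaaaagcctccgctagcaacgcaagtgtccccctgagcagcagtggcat

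The Gzmb window held 3 RUNX matches and 1 CRE-like match, and no T-box match. The Gzmk and Gzmm windows each held 1 RUNX and 1 T-box match, and the Prf1 window 1 RUNX and 1 CRE-like match. No 2 matches overlapped. Of 33469 rat promoter windows of this length, 14.5% held the RUNX core, 2.8% the CRE-like motif and 3.22% the T-box core. RefSeq gave a window for 8 of the 10 members, of which 7 held the RUNX core, Klra1 being the exception. These matches describe letters in the windows and not bound sites.

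Gzmb, which encodes granzyme B, a protease that cuts after aspartate and activates caspases, had high counts in only 2 libraries, from 2 different groups. It counted 6, 215 and 11 in Sham replicates 1 to 3, 17, 25 and 10 in OVX, and 21, 270 and 40 in the AS-IV group. Sham 2 and AS-IV 2 thus stood far above the other 7 libraries, at 12.1 and 14.0 times the median of the remaining 8 libraries in CPM, while no OVX library was high. In FPKM (read fragments scaled for transcript length and library total), these 2 libraries reached 4.18 and 4.92, against 0.114 to 0.746 in the other 7.

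The fitted log2 fold change (log2FC) of Gzmb was -2.27 (SE 1.37) in OVX vs. Sham and 2.68 (SE 1.38) in AS-IV vs. OVX, given as a description. Each rested on 1 library of the comparison: without Sham 2 the first was 0.97, and without AS-IV 2 the second was 0.85. The SD of Gzmb exceeded its mean in Sham, at 2.26 ± 3.51 CPM, and in the AS-IV group, at 3.00 ± 3.75 CPM, against 0.465 ± 0.194 CPM in OVX (SD, n = 3 each).

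**Figure D1:**
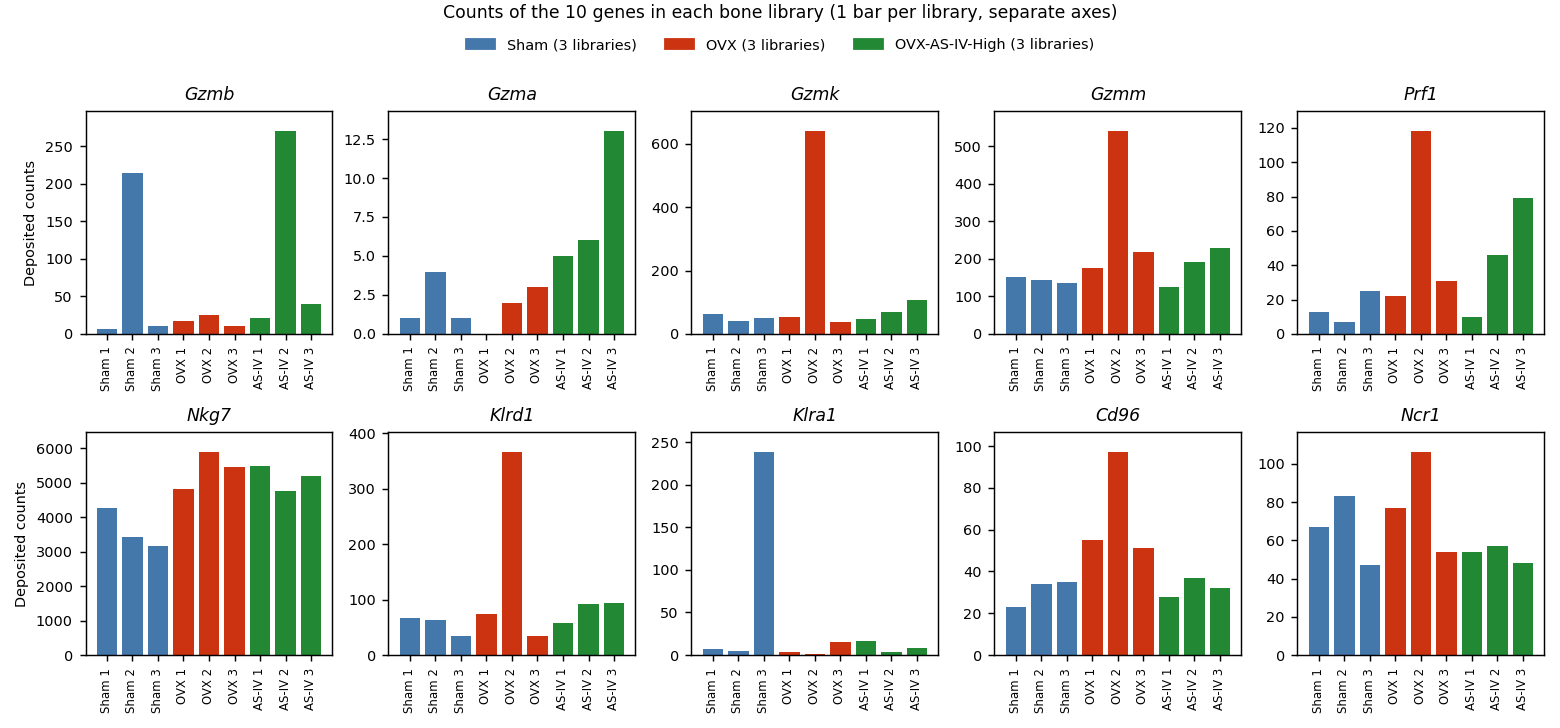
Deposited counts of the 10 genes (y axis, a separate scale per gene) in each of the 9 bone libraries (x axis, 1 bar per library, coloured by group). Gzmb is high in Sham 2 (215) and AS-IV 2 (270), Klra1 in Sham 3 (238), and Gzmk, Gzmm, Prf1 and Klrd1 have their tallest bar in OVX 2 (640, 540, 118 and 366).

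The 2 libraries with high Gzmb were not the highest libraries for the other members. None of the other 9 members had its highest CPM in Sham 2 or in AS-IV 2. These were the highest libraries for 10.3% and 9.52% of all tested genes, so none of 9 lies near those shares. In AS-IV 2 the other 9 members ranked between the 2nd (Gzma) and the 8th (Klra1) of the 9 libraries. Gzmk, Prf1 and Klrd1 were all 3rd there, and Gzmm and Cd96 both 4th. In Sham 2 the other members ranked between the 2nd (Ncr1) and the 9th (Prf1), with Gzmk and Nkg7 both 8th. Sham 2 therefore combined the second highest Gzmb with the lowest Prf1 of all libraries, at 7 counts.

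Since Gzmb split the libraries into 2 high and 7 low, its relation to the other members was examined within the 7 low libraries. Gzmb counted only 6 to 40 in these. The 2 high libraries are left out, so the values below cannot show whether those were high in the other members. Pearson's r of log2 CPM ranged from -0.30 for Klra1 to 0.65 for Gzma, with a median of 0.465 over the 9 members, and Spearman's rho from -0.21 for Klra1 to 0.68 for Klrd1. None of the 9 correlations passed an exact two-sided permutation test. The smallest p was 0.11 for either measure, and the adjusted p-values began at 0.562 for r and 0.53 for rho. When the 2 libraries farthest from the Gzmb median (Sham 1 and AS-IV 3) were also left out, r over the 5 libraries ranged from -0.64 to 0.81.

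The gene next to Gzmb in RefSeq order, the granzyme gene Gzmc, was close to undetected. It counted 0, 0 and 2 in Sham, while OVX had 2, 5 and 1 and the AS-IV group had 1, 15 and 2. Its 15 counts fell in AS-IV 2, the library highest in Gzmb, and Sham 2 had 0. Granzyme genes of this locus are close in sequence, so reads could have been shared between them in the authors' counting. Another granzyme B-like gene, Gzmbl1, counted at most 3 in any library.

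Most of the other members had their highest value in a library that was low in Gzmb. OVX 2 was the highest library for 7 of the 10 members, namely Gzmk, Gzmm, Prf1, Nkg7, Klrd1, Cd96 and Ncr1, whereas it was the highest library for 11.1% of the 16874 genes tested. Their CPM in OVX 2 was 11.6 times the median of the other 8 libraries for Gzmk, 5.19 times for Klrd1, 4.77 times for Prf1, 3.16 times for Gzmm, 2.58 times for Cd96, 1.85 times for Ncr1 and 1.19 times for Nkg7. AS-IV 3 was the second highest library for Gzmk, Gzmm, Prf1 and Klrd1. With OVX 2 set aside, the highest of the 8 remaining libraries was AS-IV 3 for Gzma, Gzmk, Gzmm, Prf1 and Klrd1.

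**Figure D2:**
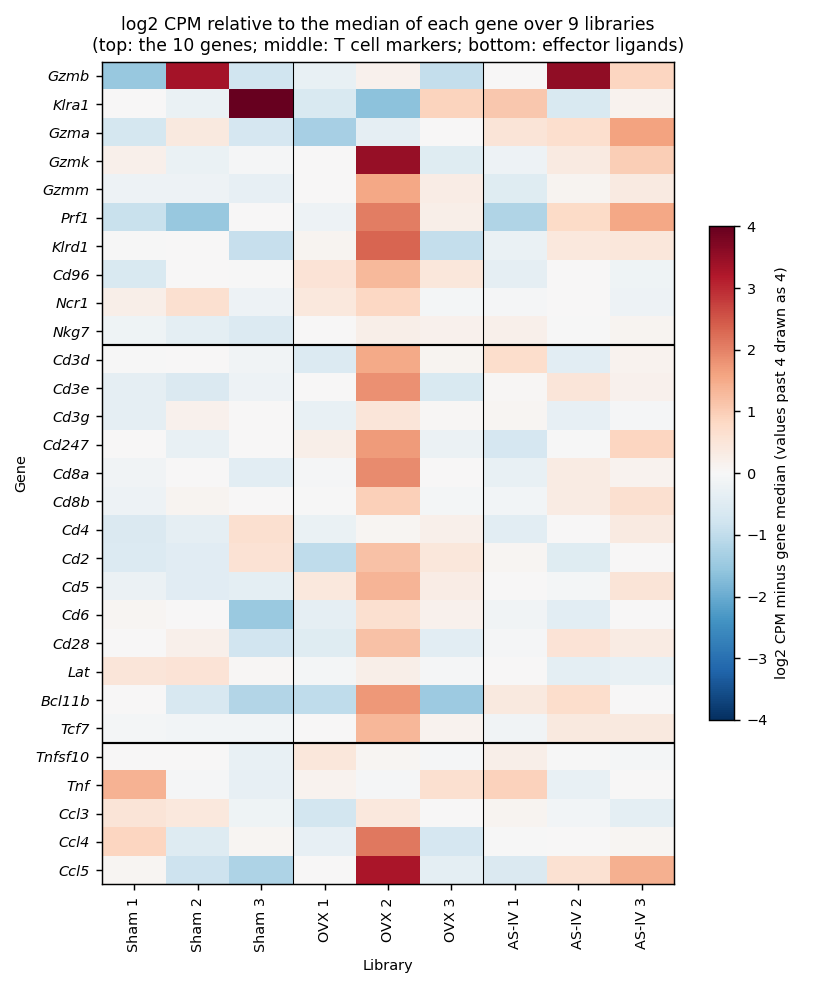
Colour gives log2 CPM minus the gene's median over the 9 libraries (values past 4 are drawn as 4), with genes in rows and libraries in columns. The top block holds the 10 members, the middle block T cell markers and the bottom block effector ligands, and 7 of the 10 members and 12 of the 14 T cell markers have their highest value in the column OVX 2, while Gzmb has its 2 highest in Sham 2 and AS-IV 2.

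T cell markers moved with these members in OVX 2. Of 14 T cell markers tested, 12 were highest in OVX 2 (the exceptions were Cd4 and Lat), and the median of their log2 CPM over each gene's own median was 1.25 there, against -0.18 to 0.17 in the other 8 libraries. Cd3e, a chain of the T cell receptor complex, counted 376 in OVX 2 and 63 to 143 elsewhere, and Cd8a, a co-receptor of cytotoxic T cells, 934 in OVX 2 and 174 to 304 elsewhere (Cd3e was chosen for its role after its values were seen). Summed over the list, T cell markers reached 144 to 212 CPM in Sham, 145 to 250 in OVX and 143 to 196 in the AS-IV group, and none was at 0 in any library. Cd4 had the most counts of the list in every library, at 2216 to 5026. The sum therefore follows Cd4, an exception above, more than the other markers. B lineage markers were highest in OVX 2 for 5 of 9 genes, but their rise was not limited to that library. Their summed level was 1328 to 1908 CPM in Sham, 2110 to 2261 in OVX (lowest in OVX 2) and 2076 to 2180 in the AS-IV group. In OVX vs. Sham, 7 of the 9 were higher without overlap of the groups, against 12.7% of all tested genes. By edgeR, 7 were higher at an unadjusted p under 0.05, where 16.4% of all genes passed in either direction, and none passed after adjustment. DESeq2 gave 6 of the 9 an adjusted p under 0.05. OVX 2 was also the highest library for 5 of 12 osteoblast and osteocyte markers and 4 of 10 adipocyte markers, against 11.1% of all tested genes. It was highest for 1 of 9 neutrophil markers and for 0 of the osteoclast, erythroid and skeletal muscle markers. What part any of these cell types had in the members' values was not tested.

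Ordered by mean FPKM over the 9 libraries, Nkg7 led at 135.0, followed by Gzmm (4.47), Gzmk (3.82), Klrd1 (1.74), Ncr1 (1.41), Gzmb (1.28), Klra1 (0.776), Cd96 (0.581), Prf1 (0.549) and Gzma (0.120). Nkg7 was apart from the rest, since its lowest library (92.7 FPKM) lay far above the highest value of any other member, 19.7 FPKM for Gzmk in OVX 2. Each other pair of neighbours in this order overlapped in its range over the libraries.

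**Figure D3:**
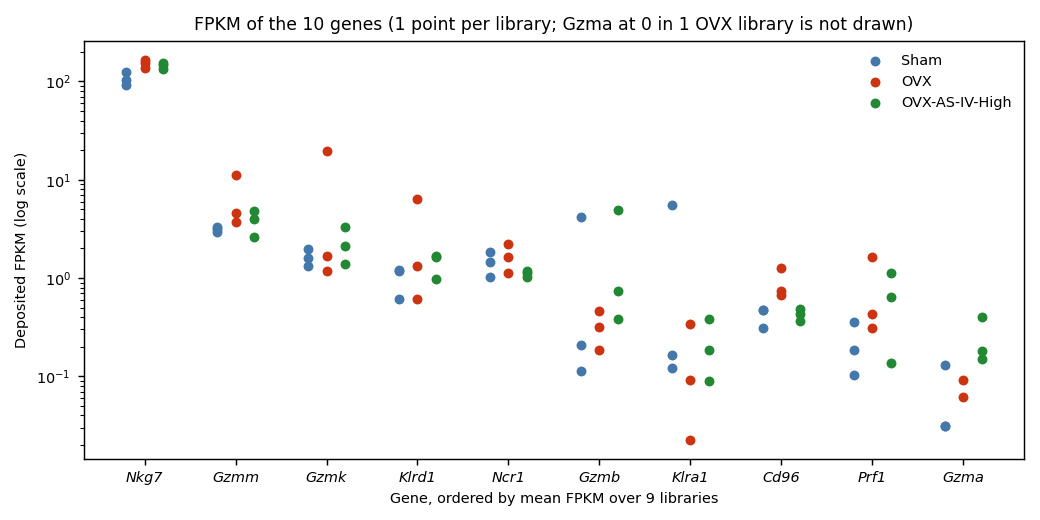
FPKM of the 10 genes on a log scale (y axis), with genes ordered by their mean over 9 libraries (x axis) and 1 point per library coloured by group (Gzma at 0 in OVX 1 is not drawn). Nkg7 lies between 92.7 and 166.5 FPKM, and the other 9 genes lie at 19.7 FPKM or less.

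In OVX vs. Sham, the comparison that asks what ovariectomy changed, the members pointed in both directions. A gene was counted as changed at an unadjusted p under 0.05 and a log2FC above 1 or below -1 in edgeR's quasi-likelihood test. Gzmm, Gzmk and Cd96 rose and Klra1 fell by this threshold. That was 4 of the 8 tested members other than Gzmb, where 3.11% of all 16874 tested genes were called (1.08% higher and 2.03% lower). After Benjamini-Hochberg adjustment over all tested genes, none of the 8 passed 0.05 in edgeR's quasi-likelihood test, and neither did any other gene. Before adjustment 5 of the 8 had p under 0.05, as had 16.4% of all genes, and DESeq2 gave 1 of 7 members with an adjusted p under 0.05 (Nkg7; Klra1 received no p there). The median log2FC of the 8 members was 1.04, against -0.01 over all tested genes, and 7 of the 8 were above 0, as were 49.2% of all genes.

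Among the proteases, Gzmk, which encodes the tryptase-like granzyme K, counted 62, 41 and 51 in Sham and 54, 640 and 38 in OVX. Only OVX 2 was high, and the other OVX libraries lay within or below the Sham range. Its log2FC was 2.16 (SE 0.934), with an edgeR Benjamini-Hochberg adjusted p of 0.293.

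Gzmm, which encodes granzyme M, a protease typical of NK cells, counted 153, 143 and 136 in Sham and 177, 540 and 218 in OVX. The groups did not overlap. Its log2FC was 1.03 (SE 0.397), with an edgeR adjusted p of 0.25.

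Gzma, which encodes the tryptase granzyme A, counted 1, 4 and 1 in Sham and 0, 2 and 3 in OVX, and did not pass the filter. At these counts a difference was not detectable.

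Of the granule proteins, Prf1 counted 13, 7 and 25 in Sham and 22, 118 and 31 in OVX. The ranges overlapped, and OVX 2 was again highest. Its log2FC was 1.84 (SE 0.855), with an edgeR adjusted p of 0.321, and its unadjusted p missed the threshold.

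Nkg7, which encodes a membrane protein needed for granule exocytosis, counted 4266, 3422 and 3174 in Sham and 4815, 5877 and 5442 in OVX. All 3 OVX libraries were above all 3 Sham libraries. Its mean was 102.3 ± 14.0 CPM in Sham and 144.6 ± 12.2 in OVX (SD, n = 3 each). The log2FC was 0.50 (SE 0.120), under the size threshold, with an edgeR adjusted p of 0.149, and was 0.45 without OVX 2.

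Groups did not overlap in normalised CPM for 3 of the 8 members, Gzmm, Nkg7 and Cd96, each higher in OVX. The share of all tested genes whose groups did not overlap was 23.3% (12.7% higher and 10.6% lower in OVX). For a single gene, an exact permutation test of 3 libraries against 3 cannot give a two-sided p below 0.1.

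Among the receptors, Cd96, which binds the poliovirus receptor on target cells and is made by T and NK cells, counted 23, 34 and 35 in Sham and 55, 97 and 51 in OVX. Every OVX library exceeded every Sham library. Its log2FC was 1.06 (SE 0.352), with an edgeR adjusted p of 0.206.

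Klrd1, which encodes CD94, the partner chain of the NKG2 receptors, counted 67, 64 and 34 in Sham and 75, 366 and 35 in OVX. The groups overlapped, and OVX 3 was as low as the lowest Sham library. Its log2FC was 1.43 (SE 0.731), with an edgeR adjusted p of 0.35.

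Ncr1, which encodes the activating NK receptor NKp46, was the most even of the receptors, with 67, 83 and 47 counts in Sham and 77, 106 and 54 in OVX. The groups overlapped. Its log2FC was 0.18 (SE 0.328), with an edgeR adjusted p of 0.792.

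Klra1, a member of the Ly49 family of lectin-like NK receptors, was the one member with a call in the lower direction. It counted 7, 5 and 238 in Sham and 4, 1 and 15 in OVX. Sham 3 alone was high, at 39.6 times the median of the other 8 libraries in CPM, and the other Sham libraries lay inside the OVX range. The log2FC was -3.68 (SE 1.48), with an edgeR adjusted p of 0.266, and was 0.09 without Sham 3. Ly49 genes are close copies of each other, so counts of a single one are uncertain. Another Ly49 gene, Klra5, was also highest in Sham 3, with 208 counts against 26 to 68 in the other libraries, as was the antibody receptor gene Fcgr3a, with 1370 against 255 to 814 (both chosen after their values were seen).

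Without OVX 2, none of the 8 members was called by edgeR (1 of 8, Nkg7, had an unadjusted p under 0.05), and the log2FC was -0.21 for Gzmk, -0.06 for Klrd1, 0.40 for Gzmm, 0.77 for Prf1 and 0.73 for Cd96. Klra1 kept a log2FC of -3.17 in that fit, with an unadjusted p of 0.0945, so its call was lost while its fold stayed large. The median log2FC of the 8 members was then 0.17. Without Sham 1, Sham 2 and Sham 3, 1, 2 and 2 members were called, while the log2FC of Gzmk stayed between 2.05 and 2.29 and that of Gzmm between 0.99 and 1.06, with unadjusted p-values above 0.05. Cd96 had a log2FC of 0.86 without Sham 1.

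**Figure D4:**
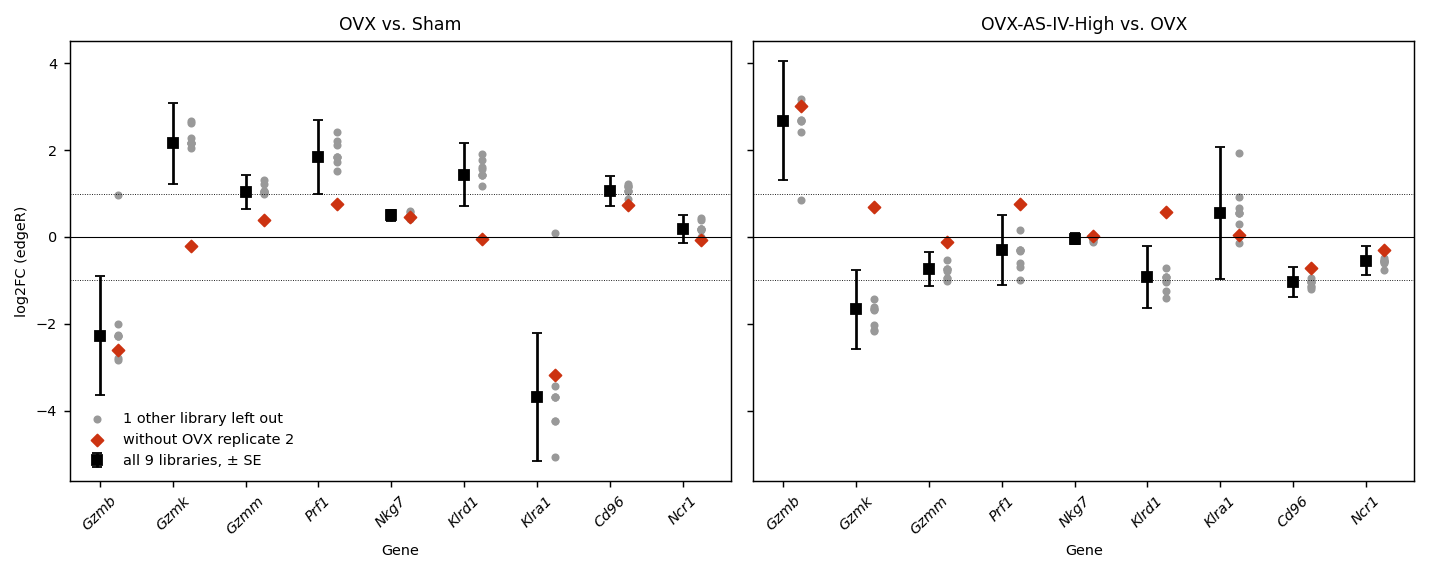
Fitted log2FC (y axis) of the 9 tested genes (x axis) in OVX vs. Sham (left) and AS-IV vs. OVX (right), with squares and bars for the value ± SE from all 9 libraries, grey points for fits with 1 other library left out and red diamonds for the fit without OVX 2. In OVX vs. Sham, Gzmk moves from 2.16 to -0.21 without OVX 2, and single grey points mark Gzmb without Sham 2 (0.97) and Klra1 without Sham 3 (0.09).

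In the comparison of the AS-IV group with OVX (AS-IV vs. OVX), which asks what AS-IV changed in ovariectomized rats, Cd96 fell and no other member passed the threshold. That was 1 of 8 tested members besides Gzmb, with 0.83% of all tested genes called (0.456% higher and 0.373% lower). None of the 8 passed an edgeR Benjamini-Hochberg adjusted p of 0.05, and DESeq2 gave none either. Cd96 alone had an unadjusted p under 0.05, where 6.45% of all genes did, and 1 of the 8 had a log2FC above 0, against 46.7% of all genes. The OVX libraries are the same ones as in OVX vs. Sham, so the 2 comparisons are not independent, and a library that was high in OVX gave opposite signs in them. The count was 3 without OVX 1 or without OVX 3, and 0 without OVX 2 or without AS-IV 1. Without AS-IV 1, Cd96 had a log2FC of -0.95 and an unadjusted p under 0.05, and missed only the size threshold. The median log2FC of the 8 members was -0.64, against -0.02 over all genes.

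Cd96 counted 28, 37 and 32 in the AS-IV group, below the 55, 97 and 51 of OVX and within the Sham range of 23 to 35 apart from 1 library. Its log2FC was -1.03 (SE 0.351), with an edgeR adjusted p of 0.658. The groups did not overlap for 1 of the 8 members, Cd96, against 12.7% of all tested genes (6.38% higher and 6.36% lower).

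Gzmk counted 46, 70 and 107 in the AS-IV group, where OVX had 54, 640 and 38. The ranges overlapped. Its log2FC was -1.67 (SE 0.914), with an edgeR adjusted p of 0.854, and was 0.70 without OVX 2.

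Gzmm counted 126, 192 and 228 in the AS-IV group, a range that overlapped that of OVX. Its log2FC was -0.74 (SE 0.394), with an edgeR adjusted p of 0.846, and was -0.11 without OVX 2.

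Klrd1 counted 57, 93 and 94, with a log2FC of -0.92 (SE 0.718) that was 0.57 without OVX 2. Prf1 counted 10, 46 and 79, with a log2FC of -0.30 (SE 0.803) that was 0.77 without OVX 2. Ncr1 counted 54, 57 and 48, with a log2FC of -0.55 (SE 0.330). The edgeR adjusted p-values of these genes were between 0.882 and 0.981, and the groups overlapped for each.

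Nkg7 counted 5473, 4768 and 5181 in the AS-IV group, a range that overlapped that of OVX. The mean was 140.7 ± 10.9 CPM (SD, n = 3), and the log2FC was -0.04 (SE 0.120). Klra1 counted 17, 4 and 8, with a log2FC of 0.55 (SE 1.52), so its error was larger than the difference.

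Gzma counted 5, 6 and 13 in the AS-IV group, against 0, 2 and 3 in OVX and 1, 4 and 1 in Sham. Each AS-IV library was above each library of the other groups. Since OVX lay at or under a floor of 3 counts per library, the mean of the AS-IV group was at least 2.71-fold higher than that floor, and at least 1.86-fold without AS-IV 3, which had the most counts. Gzma did not pass the filter in the fit over all genes, and has no adjusted p.

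In AS-IV vs. Sham, which spans surgery and treatment together, none of the 8 tested members besides Gzmb was called by edgeR, with 3.15% of all genes called. Nkg7 alone had an unadjusted p under 0.05 in edgeR, as had 17.6% of all genes, and in DESeq2, where its adjusted p was also under 0.05. Its log2FC was 0.46 (SE 0.120), with an edgeR Benjamini-Hochberg adjusted p of 0.125, and each treated library was above each Sham library. Groups did not overlap for 1 of the 8 members, against 19.9% of all genes (9.61% higher and 10.3% lower). Nkg7 was thus higher than in Sham in both ovariectomized groups, which share the same Sham libraries. Some markers of other cell types were also higher in both. Of 9 tested neutrophil markers, 3 in OVX vs. Sham and 4 in AS-IV vs. Sham were higher at an unadjusted edgeR p under 0.05. Of 9 B lineage markers, 7 and 3 were. In either direction, 16.4% and 17.6% of all genes passed this p. The summed neutrophil level was 11570 to 16020 CPM in Sham, 14130 to 18770 in OVX and 16270 to 20250 in the AS-IV group, so OVX overlapped Sham. The summed B lineage level was 1328 to 1908, 2110 to 2261 and 2076 to 2180 CPM, without overlap of Sham with either other group. Of 10 adipocyte markers, 4 were called higher in each of these comparisons (Adipoq, Plin1, Cidec and Lep), against 1.08% and 1.11% of all tested genes. Their list had summed levels of 583 to 763, 805 to 1073 and 718 to 1076 CPM. No marker of these lists was at 0 in all libraries, and the part of these cell types in the Nkg7 difference was not tested. Prf1 had a log2FC of 1.53 (SE 0.854) and Klra1 one of -3.13 (SE 1.42), neither past the threshold. Without Sham 1 or Sham 2, Klra1 was called lower, whereas without Sham 3 its log2FC was 0.63. Without AS-IV 1, Prf1 was called higher.

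Few genes that work with the members passed the same threshold. None of 6 tested genes of the other granzymes and their partners was called in any of the 3 comparisons by edgeR. Of these, Srgn, which encodes the granule proteoglycan serglycin, counted 43606 to 140389, and Ctsc, which encodes the protease that activates granzymes, 2522 to 4531. Ctsc was at 4531, 4294 and 3565 counts in the AS-IV group and 3152, 3569 and 3051 in OVX, with a log2FC of 0.37 (SE 0.112), an edgeR unadjusted p of 0.00896 and an adjusted p of 0.652. At an unadjusted p under 0.05, 2 of the 6 were higher in OVX vs. Sham and 2 in AS-IV vs. Sham, and in AS-IV vs. OVX 1 was higher and 1 lower. DESeq2 called none either, but gave an adjusted p under 0.05 to Ctsw in OVX vs. Sham and to Ctsc in AS-IV vs. Sham.

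None of 10 genes of the granule release machinery was called in any comparison by edgeR, and none had its highest library in OVX 2. Their median log2FC was 0.13 in OVX vs. Sham, 0.02 in AS-IV vs. OVX and 0.18 in AS-IV vs. Sham. At an unadjusted p under 0.05 the counts were 1, 0 and 2 genes, all higher, and DESeq2 called none. DESeq2 gave an adjusted p under 0.05 to the vesicle fusion gene Vamp7 in OVX vs. Sham, with an edgeR log2FC of 0.26 (SE 0.077), and to Vamp7 and the lysosomal trafficking gene Lyst in AS-IV vs. Sham, with edgeR log2FC of 0.40 (SE 0.077) and 0.39 (SE 0.112). Both were chosen after their values were seen. The lysosomal membrane gene Lamp1 and Vamp8, also of vesicle fusion, had steady counts, at 10908 to 15858 and 2305 to 2847.

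Other NK receptors showed no common direction. None of 18 tested was called by edgeR in OVX vs. Sham, where their median log2FC was -0.01 and 1 had an unadjusted p under 0.05. None was called in AS-IV vs. OVX either, with 2 at an unadjusted p under 0.05, and DESeq2 called none in either comparison. DESeq2 gave an adjusted p under 0.05 to Klrk1, which encodes the activating receptor NKG2D and was chosen after its values were seen, in OVX vs. Sham. Its edgeR log2FC was 0.79 (SE 0.183) there and -0.73 (SE 0.183) in AS-IV vs. OVX, with adjusted p-values of 0.145 and 0.652. Klri1, an NK receptor gene with 1 to 23 counts, was lower in the AS-IV group than in Sham, with a log2FC of -1.89 (SE 0.777) and an edgeR adjusted p of 0.256. Of the 18, 5 were highest in OVX 2 and 4 in Sham 3.

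Among 20 genes of NK and cytotoxic transcription and signalling, Sh2d2a, which encodes a T cell adaptor protein, rose in OVX vs. Sham and fell in AS-IV vs. OVX. It counted 47, 37 and 54 in Sham, while OVX had 132, 230 and 60 and the AS-IV group had 31, 51 and 96. OVX was above Sham in every library, and overlapped the AS-IV group. The log2FC was 1.53 (SE 0.527) and -1.21 (SE 0.520), with edgeR adjusted p-values of 0.214 and 0.767. Without OVX 2 neither call stood, with log2FC of 1.01 and -0.69. The other 19 were not called by edgeR in either comparison, and DESeq2 also called Sh2d1a, an adaptor gene of T and NK cells, in OVX vs. Sham. There, 5 of the 20 were higher and 1 lower at an unadjusted edgeR p under 0.05, where 16.4% of all genes passed. Groups did not overlap for 8 higher and 1 lower, against 12.7% and 10.6% of all genes. In AS-IV vs. Sham, DESeq2 gave an adjusted p under 0.05 to Il21r, which was higher, and Il15, which was lower. Il12rb2, which encodes a chain of the interleukin 12 receptor, was higher in the AS-IV group than in Sham, with a log2FC of 1.00 (SE 0.406) and an edgeR adjusted p of 0.251. Eomes, a transcription factor of cytotoxic cells, had 345 counts in OVX 2 and 21 to 78 in the other libraries. Tbx21, which encodes the related factor T-bet, counted 115, 87 and 85 in Sham and 51, 116 and 32 in OVX. Without OVX 2, both were called lower in OVX vs. Sham, with log2FC of -1.23 (SE 0.509) and -1.25 (SE 0.328) and edgeR adjusted p-values of 0.397 and 0.317, whereas with it Eomes had a log2FC of 0.96 (SE 0.883). Sh2d1a, Il15, Eomes and Tbx21 were chosen after their values were seen.

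Of 5 tested effector ligands and cytokines, Ccl5, a chemokine stored and released by cytotoxic cells, rose in OVX vs. Sham. It counted 227, 112 and 87 in Sham, while OVX had 215, 2168 and 166 and the AS-IV group had 143, 334 and 580. OVX 2 was again the high library and AS-IV 3 the next. The log2FC was 2.49 (SE 0.960), with an edgeR adjusted p of 0.249, and was 0.38 without OVX 2. Without that library Ccl5 was instead called higher in AS-IV vs. Sham, with a log2FC of 1.27 (SE 0.517). In the full fit none of the 5 was called in the other comparisons, and none had an unadjusted p under 0.05 there.

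Of the 14 T cell markers, Cd8a and Cd5, a co-receptor and an inhibitory surface protein of T cells, rose in OVX vs. Sham, with log2FC of 1.11 (SE 0.488) and 1.15 (SE 0.321) and edgeR adjusted p-values of 0.302 and 0.166. Cd8a counted 215, 226 and 174 in Sham and 233, 934 and 241 in OVX. Cd5 counted 89, 72 and 77 in Sham and 144, 282 and 130 in OVX. Cd8a was high in OVX 2 alone, and Cd5 was above Sham in each OVX library. Without OVX 2 neither was called, with log2FC of 0.15 and 0.73. Cd5 then had an unadjusted edgeR p of 0.0242 and missed only the size threshold. DESeq2 on all libraries also called Cd3e in OVX vs. Sham. It gave an adjusted p under 0.05 to Cd5 there, and to Lat in AS-IV vs. Sham, where Lat was lower. The median log2FC of the list was 0.61 in OVX vs. Sham, -0.39 in AS-IV vs. OVX and 0.28 in AS-IV vs. Sham, beside 1.04, -0.64 and 0.37 for the 8 members.

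Cell types other than T and NK cells that can hold granzyme B were also followed. Of 9 plasmacytoid dendritic cell markers, 3 were highest in AS-IV 2, where Gzmb peaked, as were 9.52% of all tested genes. These were Siglech, Tcf4 and Runx2, with Tcf4 and Runx2 named after their values were seen. Runx2 is also among the osteoblast markers examined, so it does not mark these cells alone. In Sham 2, 1 of the 9 was highest. The summed level of the list was 590.0 to 712 CPM in Sham, 808 to 959 in OVX and 670 to 740 in the AS-IV group. Spib had the most counts of the list in every library, at 5931 to 17382, so this gene weighs most in the sum. Siglech, a surface lectin of these cells, counted 80, 59 and 80 in Sham, while OVX had 90, 159 and 183 and the AS-IV group had 135, 215 and 136. It was called higher in AS-IV vs. Sham with Ccr9, a chemokine receptor gene. Sham 2, the other library with high Gzmb, had the lowest Siglech count of all 9. Of 12 mast cell and basophil markers none was highest in AS-IV 2. In Sham 2, 2 of the 12 were highest, as were 10.3% of all tested genes. These were Hdc and Mcpt10, with Hdc named after its values were seen. The summed level of the list was 845 to 1254 CPM in Sham, 991 to 1128 in OVX and 598 to 1027 in the AS-IV group. Of all 9 libraries, Sham 2 had the highest sum, at 1254 CPM, and AS-IV 2 had 791 CPM. No marker of either list was at 0 in all libraries. Cma1, which encodes mast cell chymase, fell in AS-IV vs. Sham, with a log2FC of -1.20 (SE 0.198) and an edgeR adjusted p of 0.0815. The part of these cells in the Gzmb counts was not tested.

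The 10 genes most like Gzmb over the 9 libraries were not in the lists of T and NK cell genes. By Pearson's r of log2 CPM, the 10 nearest of 16865 genes were Pcdhb4, Abca8a, LOC102549233, Tm2d3, Sorbs2, Tbxt, Ccer2, Poll, Tmco6 and Senp8, with r from 0.89 to 0.83. Of the 57 T and NK cell genes in the lists, none was among the nearest 100. Since 100 of 16865 genes is a very small share, none of 57 lies near it, and this count says little. The first was the Ly49 gene Klra17, at rank 337 with r of 0.56, and the median r of the 57 genes was 0.013. The values share their libraries and, for Gzmb, rest on the same 2 high libraries.

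For the mean of the other tested members, the 10 nearest were Slc12a3, Agt, Adora1, Cdpf1, Dtx2, Islr, Itpkb, Zbed3, Tcf7 and F8a1, with r from 0.95 to 0.91. Tcf7, a T cell transcription factor, was 9th, and 10 of the 57 T and NK cell genes were among the nearest 100 of 16865 genes. The median r of the 57 genes was 0.38. These values share the library OVX 2, in which most of the members were highest.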

How the data were processed

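Bone mRNA was sequenced from 3 rats in each of 3 groups. According to the methods and labels, the authors enriched poly(A) RNA, made strand-specific libraries, aligned reads to the rat genome (mRatBN7.2 per the submitters' processing notes) and counted them per gene. The table of counts was deposited by the authors as whole numbers per gene without normalization. A second deposited table held FPKM, scaled by the authors for gene length and library total. It was used for levels and for the limma alternatives. A gene's reads can be shared among near-identical copies (granzymes, Ly49 genes), and how such reads were split affects those genes.

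Counts were analysed here in R 4.3.3 with edgeR 4.0.16 (TMM scaling, filterByExpr with a minimum count of 10, glmQLFit and glmQLFTest) over all 9 libraries, with group as the only term. Of 23026 genes, 16874 passed the filter, including 9 of the 10 members (not Gzma). SEs are the log2FC divided by the square root of the F value. P-values were adjusted by Benjamini-Hochberg over all tested genes, with the threshold of p under 0.05 and a log2FC beyond 1 in either direction taken from the study. CPM values are TMM-scaled, and log2 CPM used a prior count of 2. Library totals were alike (34874880 to 37298250 counts), so a library's low counts carry counting error of similar size, and the common biological coefficient of variation was 0.256. The edgeR p-values set a difference against 1 estimate of the spread between rats per gene. All 3 groups share that estimate, so it is not the spread of a single group. The members and gene lists were chosen with earlier results of these data known. From each list, called genes and up to 4 with the highest mean FPKM could be named, and others are marked as chosen after their values were seen. Likeness named the 10 genes with the highest r.

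Replicate numbers were not used as pairs in the main fit. Deviations from the group means of same-numbered libraries correlated at 0.31, 0.158 and 0.13 for OVX and OVX-AS-IV-High. Differently numbered libraries of these groups reached -0.283 to 0.178. For OVX and Sham the same-numbered values were 0.201, -0.161 and 0.252, and the others reached -0.369 to 0.291. These values do not settle whether the numbers pair animals. Alternatives were DESeq2 1.42.0, limma 3.58.1 on log2(FPKM + 1) and log2(FPKM + 0.1), RLE size factors, no filter, only the groups compared, a log2FC threshold of 0.58, a replicate block and leaving out each library. Scripts were tested on simulated data. Promoters (GRCr8) were matched by gene ID. Of the 23026 gene IDs, 21651 were found in the RefSeq list of genes, and no GRCr8 coordinate was set beside the counts' build.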

Additional observations from a re-analysis of the deposited data

How the results depend on the processing

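AS-IV stands for OVX-AS-IV-High. Of the 8 tested members besides Gzmb, 4 were called in OVX vs. Sham, 1 in AS-IV vs. OVX and 0 in AS-IV vs. Sham. Leaving out 1 library moved these counts over ranges of 0 to 6, 0 to 3 and 0 to 1. In OVX vs. Sham the count was 0 under limma on log2(FPKM + 1) and on log2(FPKM + 0.1), and 2 with the replicate block (Klra1 and Cd96). It was also 2 without Sham 2 and AS-IV 2 together, a setting chosen after seeing the data. DESeq2 called Gzmk, Gzmm, Prf1, Klrd1 and Cd96 in OVX vs. Sham, and gave Klra1 no p. With no filter on low counts, 6 of 9 members had an unadjusted edgeR p under 0.05 in OVX vs. Sham, Prf1 among them. The log2FC threshold of 0.58 changed none of the calls of the full fit. In AS-IV vs. OVX the count was 2 with DESeq2 (Gzmk and Cd96), 2 with no filter on low counts (Gzma and Cd96) and 0 under both limma settings. The replicate block changed no call in that comparison. In AS-IV vs. Sham it was 1 with no filter (Klra1). The limma settings compress low FPKM values, and the causes of the other differences were not tested.

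Directions turned in these cases when 1 library was left out. In OVX vs. Sham the log2FC ranged from -2.83 to 0.97 for Gzmb, -0.21 to 2.66 for Gzmk, -0.056 to 1.91 for Klrd1, -5.06 to 0.0866 for Klra1 and -0.0643 to 0.43 for Ncr1. In AS-IV vs. OVX it ranged from -2.17 to 0.70 for Gzmk, -0.99 to 0.77 for Prf1, -0.11 to 0.0178 for Nkg7, -1.39 to 0.57 for Klrd1 and -0.14 to 1.93 for Klra1. In AS-IV vs. Sham it ranged from -1.42 to 3.66 for Gzmb, -3.81 to 0.63 for Klra1 and -0.16 to 0.14 for Cd96. Without Sham 2 and AS-IV 2 together, Gzmb was at 0.97 in OVX vs. Sham and Nkg7 at 0.0139 in AS-IV vs. OVX. The library that ended most calls was OVX 2, without which none of the 8 was called in either comparison. Without Sham 1, 1 member was called in OVX vs. Sham, and without AS-IV 1, none was called in AS-IV vs. OVX, where Cd96 stood at -0.95 and missed only the size threshold. The median r of the members with Gzmb was 0.0044 over all 9 libraries. With 3 rats a group, and with counts under 30 in most libraries for Gzmb, Klra1 and Gzma, a moderate difference in these genes would not be detectable.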
